A study of Mus musculus with 30 samples.

Results

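Growth hormone and its signal transducer STAT5 were followed in the livers through 9 genes: the hormone receptor *Ghr*, the transcription factor *Stat5b*, the inhibitors *Cish*, *Socs2* and *Socs3*, the secreted *Igf1* and its carrier *Igfals*, the repressor *Bcl6*, and *Keg1*. Their probe sets were selected on the measured mean signal over the 30 livers. Both probe sets of *Cish* and of *Keg1* were kept, and of every other gene the one with the highest mean, which gave 11 probe sets of 41345 on the array. All 11 had a linear average above 8 in at least 1 group of each comparison, a filter that the study applied to its sets of regulated liver genes. For *Socs3* the choice of the brightest probe set was nearly a tie, with mean log2 signals of 3.60 for 17272619 and 3.596 for 17547600, whereas the probe sets of *Socs2* lay at 4.72 (17274184) and 3.57 (17244486). *Socs3* thus lay near the median log2 signal of the arrays, which was 3.293 to 3.383.

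Growth hormone from the pituitary binds its receptor on hepatocytes and activates the kinase JAK2, which phosphorylates STAT5. STAT5 then enters the nucleus and switches on *Igf1*, *Igfals* and the inhibitors *Cish* and *Socs2*, which in turn dampen the receptor. In male rodents the hormone is released in pulses, and the pattern of release sets most of the sex differences of the liver transcriptome. *Bcl6*, a male-biased repressor, binds many of the same DNA sites as STAT5, and *Socs3* is also a target of STAT3 downstream of interleukin 6. *Keg1* encodes a protein related to glycine N-acyltransferases.

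All mice were wild type C57BL6/J males of 35 weeks, with 6 livers in each of 5 groups. Lean mice received the control diet for 27 weeks, obese mice a diet rich in fat and sucrose (HFD) for 27 weeks, and formerly obese mice HFD for 20 weeks followed by the control diet for 7 weeks. The lean-HFD and formerly obese-HFD groups had the lean and the formerly obese history and then received HFD for 48 h. The arrays read whole liver RNA, in which fewer cells of a type and less RNA per cell cannot be told apart. All 6 hepatocyte markers were measured, with a summed linear signal of 21454 to 25642 over the livers, whereas 3 adipocyte markers summed to 20.3 to 32.3 and 2 of the exocrine pancreas to 10.8 to 16.1. Arrays correlated with *r* of 0.962 to 0.983. Formerly obese-HFD replicate 6 stood apart most (mean *r* of 0.968 with the other arrays), followed by lean replicate 6 (0.969), so the member differences that include the former are also given without it.

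STAT5, like most STATs, binds DNA at the palindrome TTCNNNGAA, which reads the same on both strands and overlaps the sites of other STATs and of BCL6. RefSeq promoter windows (GRCm38.p6, 250 bases before and 50 after a start site) were at hand for 8 of the 9 genes, 13 windows in all, and 7 of these held the palindrome. Of all 32841 windows of this length, 8.3% held at least 1 match and 0.457% at least 2. The stretches shown belong to the 4 genes with a member probe set past the criteria in any comparison, with the matches in capitals. For *Igfals* and *Bcl6*, which have several annotated start sites, the windows shown are the second of 3 and the second of 2. They lie at chr9:107296409-107296678 on the forward strand, chr19:12695540-12695789 on the forward strand, chr17:24877981-24878230 on the forward strand and chr16:23981284-23981533 on the reverse strand.
Cish: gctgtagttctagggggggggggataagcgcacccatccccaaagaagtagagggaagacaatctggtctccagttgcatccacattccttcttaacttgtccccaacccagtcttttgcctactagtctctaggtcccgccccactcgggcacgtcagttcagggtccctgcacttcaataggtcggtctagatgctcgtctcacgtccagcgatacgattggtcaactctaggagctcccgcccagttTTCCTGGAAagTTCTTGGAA
Keg1: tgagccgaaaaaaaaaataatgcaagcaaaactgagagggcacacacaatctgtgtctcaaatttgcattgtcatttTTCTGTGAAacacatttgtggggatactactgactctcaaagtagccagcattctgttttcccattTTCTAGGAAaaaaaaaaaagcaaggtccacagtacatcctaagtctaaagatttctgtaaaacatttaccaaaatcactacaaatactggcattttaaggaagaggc
Igfals: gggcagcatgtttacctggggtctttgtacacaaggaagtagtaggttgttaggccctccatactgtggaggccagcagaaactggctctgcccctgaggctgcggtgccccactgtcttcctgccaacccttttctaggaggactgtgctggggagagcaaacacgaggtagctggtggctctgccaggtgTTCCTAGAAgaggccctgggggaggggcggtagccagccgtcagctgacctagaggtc
Bcl6: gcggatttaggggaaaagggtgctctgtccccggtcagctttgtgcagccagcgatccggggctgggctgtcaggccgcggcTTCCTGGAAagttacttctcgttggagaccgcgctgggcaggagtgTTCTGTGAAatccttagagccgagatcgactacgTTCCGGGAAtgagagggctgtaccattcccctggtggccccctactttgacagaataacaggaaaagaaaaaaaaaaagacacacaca

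In *Cish* the matches TTCCTGGAA and TTCTTGGAA began at the start site itself and 11 bases after it. In *Keg1* they began 173 and 107 bases before the start site, in the *Igfals* window shown 58 bases before it, and in the *Bcl6* window shown 168, 122 and 88 bases before it. Of the windows not shown, the first of *Igfals* held 1 match, 236 bases before its start site, and the third held none. The first of *Bcl6* held 1 match, 118 bases before its start site. *Socs3* held 1 match, 154 bases before its start site. The windows of *Igf1*, *Ghr* and *Stat5b* held none, which says only that these letters are not in these windows. Binding was not measured.

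The member signals differed most between the refed groups. *Cish*, which encodes a suppressor of cytokine signalling that is a classical STAT5 target, averaged 225 ± 146 (linear signal of 17530881, SD, 6 mice) in lean-HFD livers and 42.5 ± 28.9 in formerly obese-HFD livers. The lowest, median and highest signals were 54.6, 223 and 380 in lean-HFD and 16.9, 33.3 and 96.7 in formerly obese-HFD mice. The groups overlapped: formerly obese-HFD replicate 4, at 96.7, lay above lean-HFD replicates 1 and 2, at 90.4 and 54.6. The averages differed 5.29-fold, with a log2 difference of -2.30 (95% CI -3.43 to -1.16, limma *P*=0.000731, exact permutation *P*=0.00649).

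The second *Cish* probe set, 17521300, had a lower signal and the same order of groups at the extremes. Its lowest, median and highest values were 29.96, 92.9 and 142 in lean-HFD and 15.3, 21.2 and 39.1 in formerly obese-HFD livers. Here only formerly obese-HFD replicate 4, at 39.1, lay above a lean-HFD liver, replicate 2 at 29.96. The log2 difference was -1.70 (95% CI -2.48 to -0.92, limma *P*=0.000406, exact permutation *P*=0.00433).

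*Keg1* 17363101 was the one member probe set whose groups did not overlap. It ranged from 202 through a median of 403 to 1041 in lean-HFD livers and from 50.3 through 150 to 170 in formerly obese-HFD livers. Among all probe sets, 0.133% were lower in every formerly obese-HFD liver than in every lean-HFD liver. The averages differed 3.69-fold, with a log2 difference of -1.77 (95% CI -2.62 to -0.92, limma *P*=0.000604, exact permutation *P*=0.00216, the smallest that 6 against 6 mice allow). The brighter *Keg1* probe set, 17357861, averaged 1059 ± 219 in lean-HFD and 812 ± 238 in formerly obese-HFD livers and did not pass (log2 difference -0.43, 95% CI -0.91 to 0.05, limma *P*=0.0756, exact permutation *P*=0.0801). Without formerly obese-HFD replicate 6, at 379, this difference was -0.22. Both probe sets carry the symbol *Keg1* alone, and which transcripts they read was not tested.

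Thus 3 of 11 member probe sets were lower in formerly obese-HFD vs lean-HFD livers by the criteria of the study, *P* under 0.01 (limma), a ratio of linear averages above 1.2 and an average above 8. None of the others passed. The 3 belong to *Cish* and *Keg1*, the genes for which both probe sets were kept, so 3 of 11 is not a count of independent genes. The members were also chosen with earlier results of these data known. Of the brightest probe set of each gene, only *Cish* 17530881 passed. Of all probe sets, 0.914% passed in either direction and 0.469% as lower. By *P*, the 3 ranked 16, 28 and 38 of 41345. None of the 3 reached an FDR of 10% (adjusted *P* of 0.783 for each), nor did any other probe set in this comparison. Without formerly obese-HFD replicate 6 the 3 log2 differences were -2.39, -1.72 and -1.51, and all 3 passed. Kupffer cell markers summed to 246 to 599 in lean-HFD and 391 to 822 in formerly obese-HFD livers, with 5 of 6 higher, 0 of 6 past the criteria and 1 under 0.05 unadjusted (5.48% of all probe sets). Hepatocyte markers summed to 23216 to 24614 and 23419 to 25642, with 3 of 6 numerically higher and 3 lower. Of the 6, 1 passed the criteria, *Tat*, as higher (0.445% of all probe sets). Stellate cell markers summed to 760 to 971 in lean-HFD and 874 to 1721 in formerly obese-HFD livers. Of these, 4 of 5 were numerically higher and 1 lower, 0 passed and 2 were under 0.05 unadjusted. Of 5 sinusoidal endothelial markers, 3 were numerically higher and 2 lower, 0 passed and 1 was under 0.05 unadjusted. All 4 cholangiocyte markers were numerically higher, and 0 passed. The part of these cell types in the result was not tested.

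**Figure D1:**
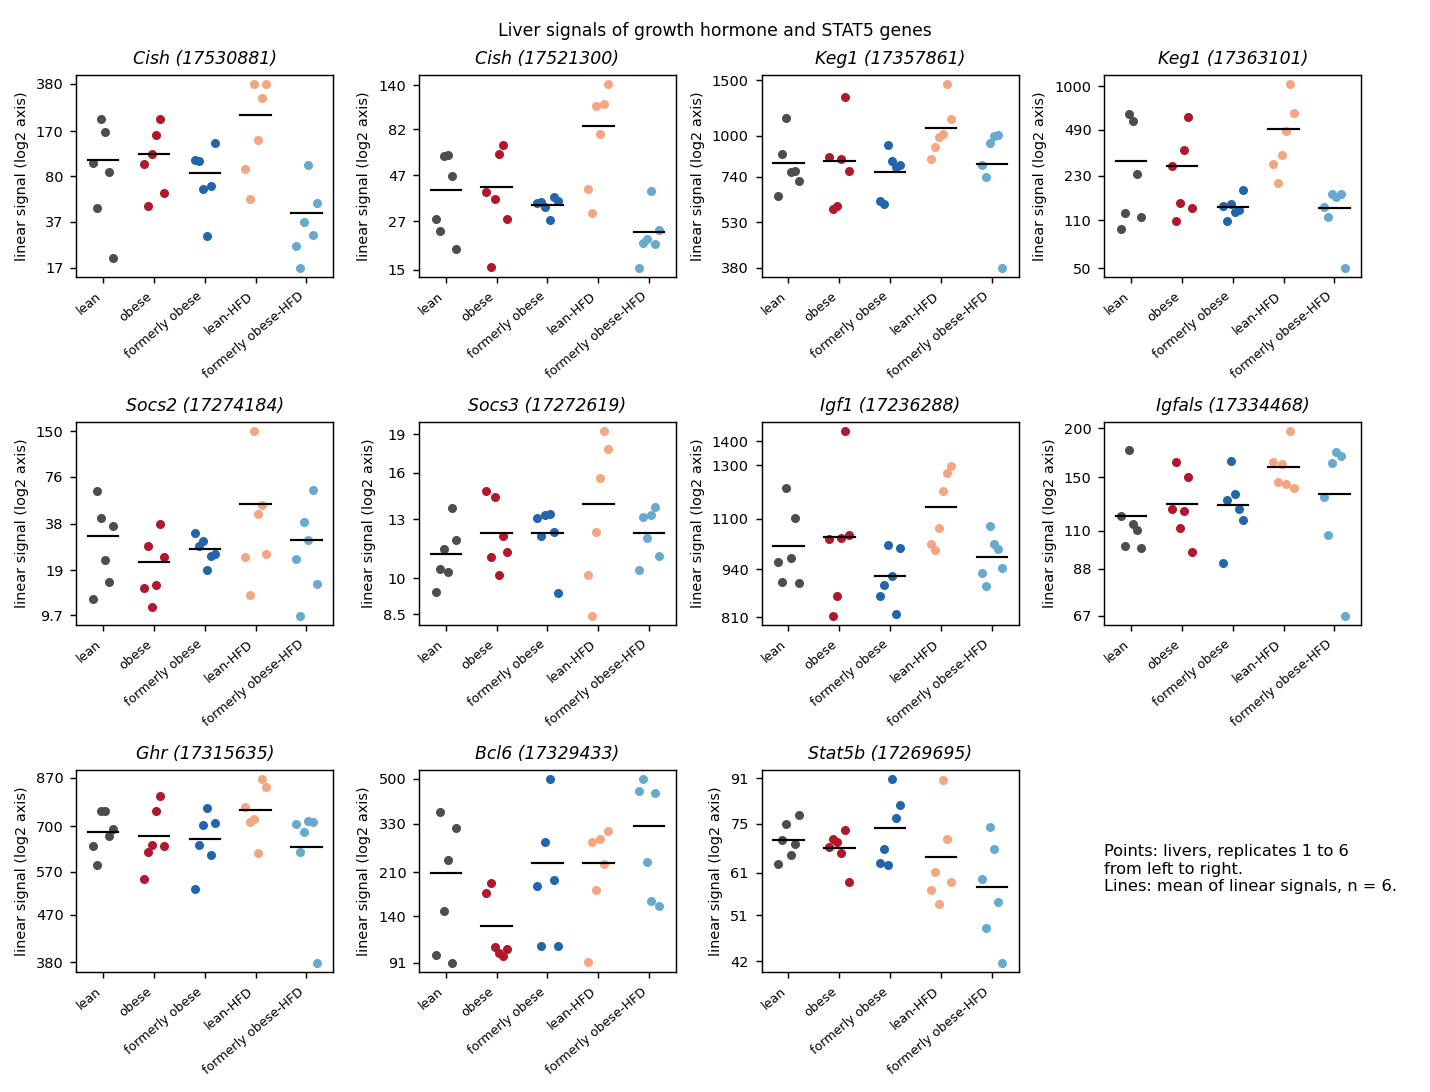
Linear signal of each member probe set (y axis, log2 scale) in the 5 groups, with 1 point per liver and a line at the mean of 6. Formerly obese-HFD livers lie lowest for *Cish* 17530881 (mean 42.5) and lean-HFD livers highest (mean 225), and for *Keg1* 17363101 the refed groups do not overlap.

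Among the other members, *Igf1*, the growth factor that carries much of the hormone's effect on growth, averaged 1142 ± 130 in lean-HFD and 977 ± 67.5 in formerly obese-HFD livers. All 6 formerly obese-HFD livers lay below the lean-HFD mean, yet neither the ratio nor the limma *P* met the criteria (log2 difference -0.22, 95% CI -0.42 to -0.02, limma *P*=0.0314, exact permutation *P*=0.0303). *Ghr* averaged 754 ± 88.4 and 637 ± 131, with formerly obese-HFD replicate 6 at 378 (log2 difference -0.27, 95% CI -0.60 to 0.07). Without that liver the difference was -0.12. *Igfals*, which encodes the protein that holds IGF1 in the circulation, differed by -0.29 (95% CI -0.74 to 0.16), *Socs2* by -0.55 (95% CI -1.75 to 0.64), *Stat5b* by -0.19 (95% CI -0.53 to 0.16) and *Bcl6* by 0.43 (95% CI -0.36 to 1.23). *Socs3* differed by -0.13 (95% CI -0.53 to 0.27). Without formerly obese-HFD replicate 6, *Igfals* differed by -0.10 and *Stat5b* by -0.098. On the same livers *Igf1* differed by -0.21, *Socs2* by -0.41, *Bcl6* by 0.62 and *Socs3* by -0.10, and none of these passed.

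The diets were then taken apart to ask whether 48 h of HFD acted on these genes differently after a history of obesity. From lean to lean-HFD livers, *Cish* 17530881 averaged 105 ± 72.4 and 225 ± 146, and from formerly obese to formerly obese-HFD livers 84.4 ± 38.7 and 42.5 ± 28.9. Lean livers ranged from 20.1 through a median of 92.8 to 210, and formerly obese livers from 29.1 through 85.0 to 139. The log2 differences were 1.13 (95% CI -0.19 to 2.45, limma *P*=0.0879, exact permutation *P*=0.143) for lean and -1.07 (95% CI -1.99 to -0.15, limma *P*=0.026, exact permutation *P*=0.0519) for formerly obese mice. Neither passed alone.

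For *Cish* 17521300 the same differences were 1.04 (95% CI 0.15 to 1.93, limma *P*=0.0251, exact permutation *P*=0.0541) and -0.54 (95% CI -0.92 to -0.16, limma *P*=0.00899, exact permutation *P*=0.0238). Formerly obese livers lay in a narrow band for this probe set, with lowest, median and highest values of 27.5, 33.9 and 36.1, and 5 of 6 formerly obese-HFD livers lay below that band. The interaction of history and 48 h HFD was -1.58 for 17521300 (95% CI -2.56 to -0.60) and passed, and it was -2.20 for 17530881 (95% CI -3.83 to -0.56) and did not. Thus 1 of 11 member probe sets had an interaction *P* under 0.01 (limma), against 1.02% of all probe sets, and its adjusted *P* was 0.88. For *Keg1* 17363101 the interaction was -1.08 (95% CI -2.37 to 0.21). *Keg1* 17363101 averaged 294 ± 240 in lean and 138 ± 23.9 in formerly obese livers, close to the 134 ± 46.1 of formerly obese-HFD livers. The interactions of the other 8 member probe sets lay between -0.47 (*Socs2*) and 0.32 (*Bcl6*), and none passed. Without formerly obese-HFD replicate 6 the interactions were -1.60 and -2.29 for *Cish*, of which again only that of 17521300 passed, -0.82 for *Keg1* 17363101, and -0.33 (*Socs2*) to 0.50 (*Bcl6*) for the other 8.

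**Figure D2:**
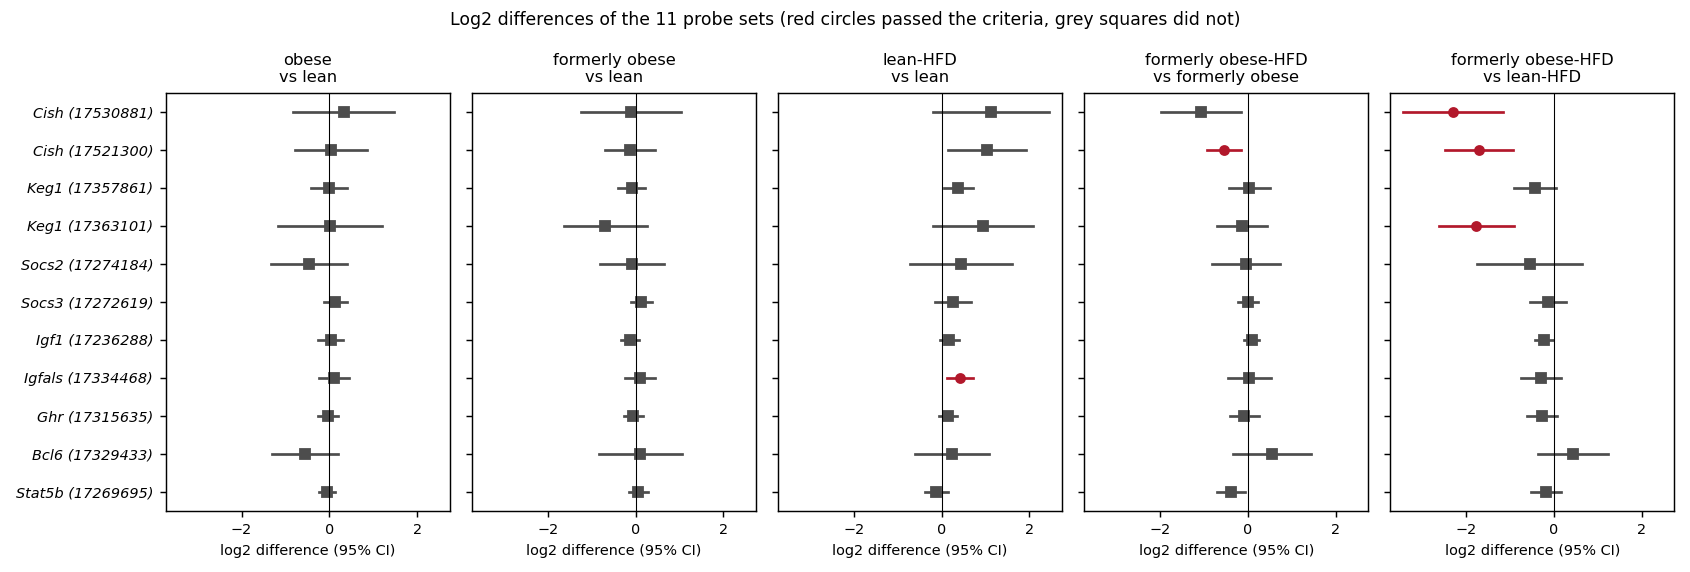
Log2 difference (x axis) with its 95% confidence interval for each member probe set in 5 comparisons, where red circles passed the criteria. In formerly obese-HFD vs lean-HFD livers both *Cish* probe sets (-2.30 and -1.70) and *Keg1* 17363101 (-1.77) passed, and in the diet comparisons of each history *Cish* lies on opposite sides of 0.

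In lean-HFD vs lean livers 1 of 11 member probe sets passed, *Igfals*, which was higher. Of all probe sets, 1.29% passed in either direction and 0.692% as higher. *Igfals* had lowest, median and highest signals of 99.1, 112 and 176 in lean and 141, 154 and 196 in lean-HFD livers. All lean-HFD livers lay above all lean livers except replicate 3, at 176. The log2 difference was 0.43 (95% CI 0.13 to 0.72, limma *P*=0.0088, exact permutation *P*=0.0173). This call was near the limit, since it was lost without any of 10 of the 12 livers (lean replicates 1, 2, 4, 5 and 6 and lean-HFD replicates 1 to 5), with log2 differences of 0.36 to 0.54 over all 12 omissions. Among the probe sets that did not pass, *Keg1* 17357861 averaged 817 ± 173 in lean and 1059 ± 219 in lean-HFD livers (log2 difference 0.37, limma *P*=0.0292, exact permutation *P*=0.0433).

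*Socs3* depended on the probe set. The brighter one, 17272619, averaged 11.2 to 13.9 over the 5 groups and did not pass in any comparison. The other, 17547600, which is no member by the rule, averaged 10.1 ± 2.34 in lean and 22.5 ± 11.4 in lean-HFD livers. Lean-HFD replicates 4, 5 and 6 lay at 29.9, 35.2 and 32.4, and replicate 1 lay at 8.57, inside the lean range. The log2 difference was 0.997 (95% CI 0.30 to 1.70, limma *P*=0.00885, exact permutation *P*=0.0281), which passed the criteria. Replicates 1 and 2 were the lowest of the lean-HFD group in both genes, with *Cish* 17530881 at 90.4 and 54.6, whereas replicate 3 combined a *Cish* signal of 379 with a *Socs3* signal of 16.8.

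In formerly obese-HFD vs formerly obese livers 1 of 11 member probe sets passed, *Cish* 17521300, which was lower (1.18% of all probe sets in either direction, 0.825% as lower). Its values stand above. This call was lost without any of 10 of the 12 livers, all but replicate 4 of each group, with log2 differences of -0.70 to -0.43. Without formerly obese-HFD replicate 6 it was -0.56, and that of 17530881 was -1.16. *Stat5b*, the main STAT5 gene of the liver, averaged 73.8 ± 11.1 in formerly obese and 57.4 ± 12.0 in formerly obese-HFD livers and did not pass (log2 difference -0.38, 95% CI -0.69 to -0.06, limma *P*=0.0223, exact permutation *P*=0.0346). Formerly obese-HFD replicate 6 had the lowest *Stat5b* of the 30 livers, 41.6, and without it the difference was -0.29.

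Without refeeding, no member passed between the groups. In obese vs lean livers 0 of 11 member probe sets passed, whereas 2.01% of all probe sets did. In formerly obese vs lean livers 0 of 11 passed (0.905% of all), and in formerly obese vs obese livers 0 of 11 (2.17% of all). None of the 11 had a limma *P* under 0.05 in these 3 comparisons (7.79%, 5.87% and 8.52% of all probe sets), and the smallest exact permutation *P* was 0.0758. Intervals were narrow for *Igf1*, *Ghr* and *Stat5b*, which varied little among mice of a group. Obese vs lean livers differed by 0.03 in *Igf1* (95% CI -0.26 to 0.31), by -0.03 in *Ghr* (95% CI -0.25 to 0.19) and by -0.05 in *Stat5b* (95% CI -0.23 to 0.12). Intervals were wide for *Keg1* 17363101 (0.01, 95% CI -1.16 to 1.19), *Cish* 17530881 (0.33, 95% CI -0.82 to 1.48) and *Socs2* (-0.46, 95% CI -1.32 to 0.39). *Keg1* 17363101 averaged 2.13-fold lower in formerly obese vs lean livers (log2 difference -0.69, 95% CI -1.63 to 0.25) and 1.94-fold lower in formerly obese vs obese livers (-0.70, 95% CI -1.46 to 0.06), and its formerly obese livers lay between 109 and 181. *Bcl6* averaged 1.79-fold higher in formerly obese vs obese livers (0.67, 95% CI -0.07 to 1.42).

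*Bcl6* was lowest in obese livers, with an average of 128 ± 41.8 and lowest, median and highest values of 97.1, 105 and 190. Formerly obese-HFD livers averaged 322 ± 157, with 153, 335 and 499. Obese replicates 1 and 2, at 173 and 190, lay above formerly obese-HFD replicates 4 and 6, at 161 and 153. Lean livers averaged 209 ± 117, formerly obese livers 229 ± 148 and lean-HFD livers 229 ± 82.0. In obese vs formerly obese-HFD livers the log2 difference was -1.22 (95% CI -1.92 to -0.53, limma *P*=0.00218, exact permutation *P*=0.013), and it passed without each of the 12 livers in turn. *Bcl6* did not pass in obese vs lean livers (-0.56, 95% CI -1.31 to 0.19) or in obese vs lean-HFD livers (-0.79, 95% CI -1.41 to -0.17, limma *P*=0.0167, exact permutation *P*=0.0455).

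*Cish* 17530881 was also called in obese vs formerly obese-HFD livers, so 2 of 11 member probe sets passed there, 1 higher and 1 lower, against 1.64% of all probe sets (1.04% higher and 0.607% lower). Obese livers ranged from 47.9 through a median of 107 to 210, with an average of 115 ± 61.2. The log2 difference was 1.495 (95% CI 0.57 to 2.42, limma *P*=0.0039, exact permutation *P*=0.0152), and the call was lost without obese replicate 4 or 5 or formerly obese-HFD replicate 1 (1.28 to 1.78 over all omissions). Without formerly obese-HFD replicate 6 both calls remained. In obese vs lean-HFD livers, which compares 27 weeks with 48 h of HFD, 0 of 11 passed (2.73% of all) and 3, *Bcl6*, *Igfals* and *Cish* 17521300, were under 0.05 by unadjusted limma fit, against 9.30% of all probe sets. The other *Socs3* probe set, 17547600, passed there as lower, at 10.02 ± 1.39 against 22.5 ± 11.4 (log2 difference -0.99, 95% CI -1.67 to -0.31, limma *P*=0.00744, exact permutation *P*=0.0281). The comparisons share groups, among them the lean-HFD and formerly obese-HFD livers, so their differences are not independent of each other.

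No member reached an FDR of 10% (limma) in any of the 8 comparisons or in the interaction, where 0 to 0.353% of all probe sets did so. Unadjusted, 0 to 4 of the 11 were under 0.05 in the 8 comparisons, and 5.48% to 9.30% of all probe sets were.

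Ordered by average, *Cish* 17530881 ran from formerly obese-HFD (42.5) through formerly obese (84.4), lean (105) and obese (115) to lean-HFD (225). No pair of neighbours in this order differed by the criteria. *Keg1* 17363101 ran from formerly obese-HFD (134) and formerly obese (138) through obese (268) and lean (294) to lean-HFD (495), again with no neighbours past the criteria. Lean-HFD livers had the highest average of the 5 groups for both probe sets of *Cish* and of *Keg1* and for *Socs2*, *Socs3*, *Igf1*, *Igfals* and *Ghr*, though not for *Bcl6* or *Stat5b*. This order is given without a test.

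Mice of a group differed widely in these genes. The SD of log2 signals within groups was 1.001 for *Cish* 17530881, higher than in 99.0% of the 27035 probe sets with an average above 8, whose median was 0.253. *Socs2* (0.860), *Keg1* 17363101 (0.846), *Bcl6* (0.735) and *Cish* 17521300 (0.655) also lay above 94.4% of them or more. The highest lean liver exceeded the lowest, replicate 6, 10.5-fold for *Cish* 17530881, and 4.52-fold without that replicate. In contrast, *Igf1* varied little, with an SD of 0.181, above only 19.4% of probe sets, and *Ghr* (0.223) and *Stat5b* (0.219) also lay below the median.

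It was then asked whether livers that were high in one member for their group were also high in others. The deviations from group means were correlated over the 30 livers for all 36 pairs of the 9 genes, each with its brightest probe set, and 5 pairs had a permutation *P* under 0.05 after Benjamini-Hochberg adjustment over the 36. All 5 were positive. *Keg1* and *Igf1* correlated with *r*=0.69 and Spearman's rho=0.74 (permutation *P*=0.00011 and 4e-05, adjusted *P*=0.00396 and 0.00144). Within groups *r* was 0.65 in lean, 0.99 in obese, 0.53 in formerly obese, 0.81 in lean-HFD and 0.49 in formerly obese-HFD livers. Without the 2 livers farthest from the median of *Keg1* it was 0.74.

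*Cish* and *Igf1* correlated with *r*=0.56 and rho=0.54 (permutation *P*=0.002 and 0.00557, adjusted *P*=0.0144 and 0.0395), with 0.51 without the 2 livers farthest in *Cish*. Within groups *r* was 0.71 in lean, 0.70 in obese, 0.09 in formerly obese, 0.71 in lean-HFD and 0.54 in formerly obese-HFD livers. *Ghr* correlated with *Keg1* (*r*=0.74, rho=0.64, permutation *P*=0.00052 and 0.00058) and with *Igfals* (*r*=0.72, rho=0.56, permutation *P*=0.00053 and 0.0025), and *Keg1* with *Igfals* (*r*=0.70, rho=0.52, permutation *P*=0.001 and 0.00784). Their adjusted *P* were 0.00636, 0.00636 and 0.009 for *r* and 0.0104, 0.03 and 0.0403 for rho. Without the 2 farthest livers *r* was 0.545, 0.553 and 0.545, and within groups the lowest *r* was 0.31, 0.22 and 0.17. These 3 pairs rest in part on formerly obese-HFD replicate 6, which was low in all 3 genes: without it *r* was 0.56, 0.51 and 0.51 and the adjusted *P* of the permutation test was 0.0565 for each. The pairs of *Igf1* with *Keg1* (0.83) and with *Cish* (0.57) kept an adjusted *P* under 0.05. *Cish* and *Bcl6* ran in opposite directions (*r*=-0.51, rho=-0.53, permutation *P*=0.00886 and 0.00659), which missed the threshold for *r* after adjustment (0.0532) and not for rho (0.0395). Within lean-HFD livers this *r* was 0.20, and with *Cish* 17521300 and the other probe sets it was -0.27 over all livers.

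**Figure D3:**
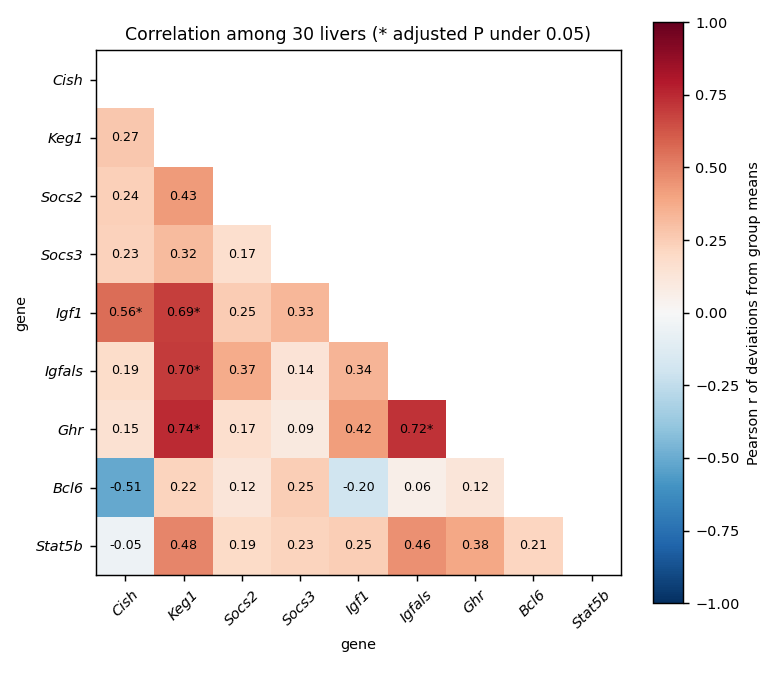
Pearson *r* of the deviations from group means over 30 livers for the 36 pairs of genes, with an asterisk where the adjusted *P* of the permutation test was under 0.05. *Keg1* forms 3 of the 5 marked pairs, with *Igf1* (0.69), *Igfals* (0.70) and *Ghr* (0.74).

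With the dimmer probe sets of *Cish*, *Keg1*, *Socs2* and *Socs3*, an alternative chosen after seeing the data, 12 of 36 pairs passed. *Cish* 17521300 and *Keg1* 17363101 then correlated with *r*=0.75 and rho=0.71 (permutation *P*=2e-04 and 0.00044), whereas the brighter pair gave 0.27.

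The genes whose pattern over the 30 livers was most like that of a member were listed by Pearson *r* of log2 signals among 16084 genes (16085 for *Bcl6*), as a description that includes the differences between groups. For *Cish* 17530881 they were *Arid5b* (0.87), *Phlda1* (0.83), *Foxq1* (0.80), *Hhex* (0.78) and *Onecut1* (0.78). For *Keg1* 17363101 they were *Phlda1* (0.85), *Cish* (0.83), *Foxq1* (0.82), *Igf1* (0.79) and *Olfr191* (0.79), so 2 of the 5 were members. *Keg1* 17357861 was most like *Nudt7* (0.89), *Ces3b* (0.88), *Slc22a28* (0.87), *AI182371* (0.86) and *Serpina4-ps1* (0.85), the first of which is on the list of male-biased genes. *Bcl6* was most like *Pck1* (0.75), which encodes a rate-limiting enzyme of gluconeogenesis, *Atxn1* (0.74), *Snf8* (0.67), *Ifi27* (0.66) and *Gstp1* (0.65).

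Genes linked to the hormone were counted in lists compiled from general knowledge. Of 9 measured kinases, STATs and adaptors (among them *Jak2* and *Stat5a*), 0 passed in formerly obese-HFD vs lean-HFD livers, and neither did any of 12 inhibitors and phosphatases, nor was any of them under 0.05 by unadjusted limma fit (5.48% of all probe sets). Their median log2 differences were 0.015 and 0.019, against 0.0005 over all probe sets. Of 10 transcription factors of sex-biased genes, 1 passed (0.914% of all probe sets in either direction), *Onecut1* (HNF6), which GH induces in rodent liver. It was lower, with an average of 189 in formerly obese-HFD and 459 in lean-HFD livers (log2 difference -1.24). Of 12 genes of the IGF system, 1 passed, as higher (0.445% of all probe sets). It was *Igfbp1*, whose protein binds and restrains IGFs (90.0 against 32.8, log2 difference 1.29).

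The sex-biased genes of the liver are a distal readout of the hormone's pattern. Of 27 measured male-biased genes, 24 were numerically higher in lean-HFD vs lean livers and 6 passed, all higher (0.692% of all probe sets). By smallest *P* these began with the complement gene *C8a* (1754 against 1117), *Selenbp2* (1130 against 236), *Cyp7b1*, an oxysterol hydroxylase (1265 against 527), and the complement gene *C8b* (2280 against 1474). The list's median log2 difference was 0.23, against -0.0045 over all probe sets. In formerly obese-HFD vs formerly obese livers 16 of the 27 were numerically higher and 11 lower, with a median of 0.19, against 0.0083 over all probe sets. Of these, 2 passed, each as higher (0.358% of all probe sets). Of 25 female-biased genes, 15 had an average above 8 in lean or lean-HFD livers, and the rest could not pass in lean-HFD vs lean livers. Of the 15, 1 passed, *Slc22a27*, and was lower (0.595% of all). In obese vs lean-HFD livers 10 male-biased genes passed, all lower (1.34% of all probe sets were lower), with a median of -0.69 against -0.0025 over all probe sets. The smallest *P* belonged to *Gstp1* (4051 against 6700), *Gstp2* (487 against 799), both glutathione transferases, *C8b* (1066 against 2280) and *C8a* (1090 against 1754). In the same comparison 7 female-biased genes, of 17 with an average above 8, passed as higher (1.40% of all). They were led by *Atp6v0d2* (13.8 against 5.94), *Slc22a27* (38.1 against 6.01), *Acot3* (63.9 against 33.3) and *Cyp2c39* (59.0 against 28.9). Markers of other cell types also differed here. Of the sinusoidal endothelial markers 4 of 5 were numerically higher and 1 passed, *Lyve1*, with sums of 738 to 995 in obese and 514 to 831 in lean-HFD livers. Of the stellate cell markers 4 of 5 were numerically higher and 1 passed, *Dcn*, with sums of 1039 to 1485 and 760 to 971. Of the hepatocyte markers 5 of 6 were numerically lower and 1 passed, *Cps1*, with sums of 21454 to 23780 and 23216 to 24614. The part of these cells in the counts was not tested.

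In obese vs lean livers 23 of 27 male-biased genes were numerically lower and 2 passed, *Gstp1* and *Gstp2* (0.878% of all probe sets were lower). In formerly obese-HFD vs lean-HFD livers, where *Cish* and *Keg1* differed, 23 of 27 male-biased genes were numerically lower (median -0.14) and 0 passed, nor was any under 0.05 unadjusted. The female-biased list had a median of -0.03 there, with 0 of 25 past the criteria and 2 under 0.05 unadjusted (5.48% of all probe sets). Only 17 of these 25 had an average above 8 and could pass. A list of 10 genes of lipid uptake and storage, of which *Cd36* and *Pparg* rise in mouse livers that lack STAT5, had 7 higher in obese vs lean livers (1.14% of all probe sets) and 8 lower in formerly obese vs obese livers (1.03%). None of the 10 passed in formerly obese-HFD vs lean-HFD livers.

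**Figure D4:**
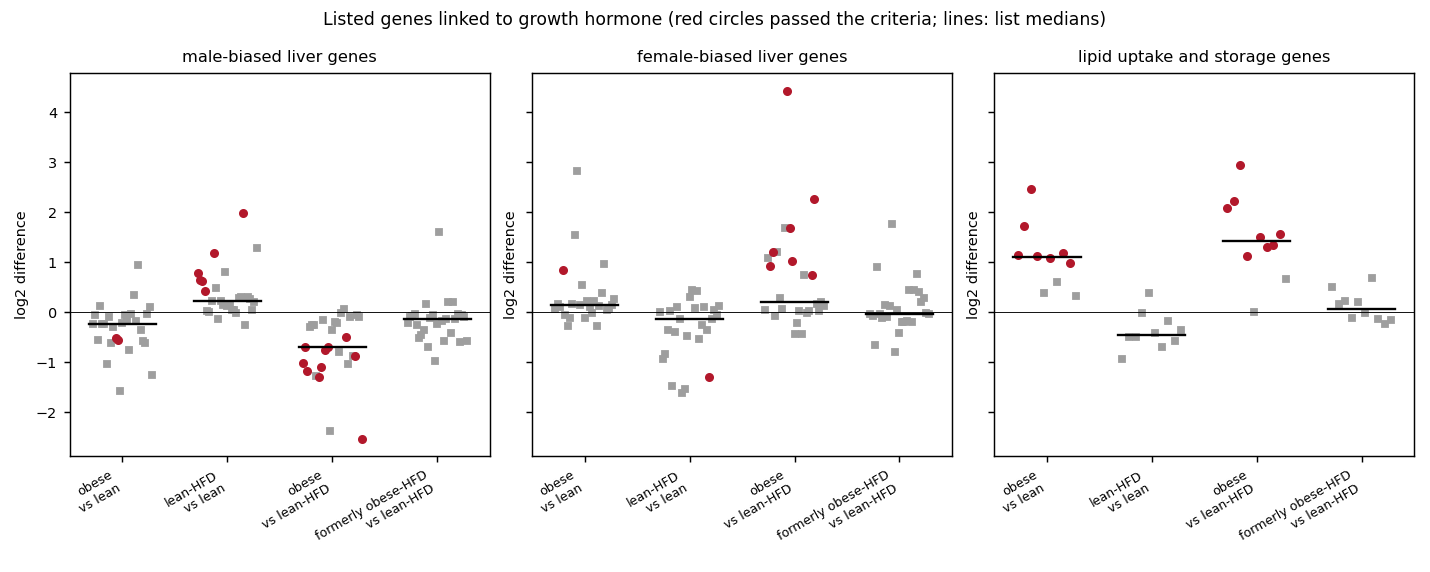
Log2 difference (y axis) of each listed gene in 4 comparisons, with red circles for genes past the criteria and lines at the list medians. Male-biased genes lie mostly above 0 in lean-HFD vs lean livers (median 0.23) and below 0 in obese vs lean-HFD livers (median -0.69), and the 3 lists drawn hold no called gene in formerly obese-HFD vs lean-HFD livers.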

How the data were processed

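RNA of 30 mouse livers, 6 in each of 5 groups, was amplified and hybridised to Affymetrix Mouse Gene 2.0 ST arrays. The deposited values are log2 signals that the authors made by RMA in Affymetrix Expression Console 1.4.1.46, which corrects the background, equalises the distributions of the arrays and summarises probes to probe sets. Such scaling can hide a change shared by most genes. The values ran from 1.244 to 13.662, and precision is set by how many arrays there are. For the array, the genome build and probe set positions were not given in the sources used here. By the platform annotation, 1 gene was named for 23521 of 41345 probe sets, several for 1820 and none for 16004.

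Groups were taken from the sample labels. Each of 8 comparisons used limma 3.58.1 in R 4.3.3, fitted to the 12 livers concerned and to every probe set. A probe set passed at *P* under 0.01 if its linear averages differed more than 1.2-fold and 1 of them exceeded 8. The interaction was fitted on 24 livers, and adjusted *P* are Benjamini-Hochberg values over 41345 probe sets. Exact permutation tests were two-sided over all 924 arrangements. Correlations used 100000 two-sided permutations within groups (Python 3.11.15, NumPy 2.4.6, pandas 2.3.3, SciPy 1.17.1, Matplotlib 3.10.9). The fits and correlations were tested on simulated data.

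The members and gene lists were chosen with earlier results of these data known. All probe sets of the members are named, and of each other list at most the 4 genes with the smallest *P* among those past the criteria. *P* values measure the spread between the labelled livers. Alternatives changed the samples in the fit, prior, array weights, centring, replicate block, filters, threshold, probe set and livers used.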

Additional observations from a re-analysis of the deposited data

Results flagged for a closer look

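Among 55 sets of 6 livers (11 member probe sets in 5 groups), 5 held a liver whose gap to the nearest of the others was large for the range of the set (Dixon's criterion at the 95% level). Chance alone gives such a liver in about 1 of 20 sets. Formerly obese-HFD replicate 6 accounted for 3 of the 5. Its signal was 379.2 for *Keg1* 17357861, where the next liver lay at 738.8, 50.32 for *Keg1* 17363101 (next 116) and 378.2 for *Ghr* (next 623.8). This array also had the lowest mean correlation with the other arrays. In formerly obese replicate 6, *Socs3* 17272619 lay at 9.337 (next 12.07). In lean replicate 3, *Igfals* lay at 175.9 (next 119.9).

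For *Cish* 17521300 the interaction of history and 48 h HFD was -1.58 on the log2 scale. Its limma *P* was under 0.01, as for 1.02% of all probe sets, and its adjusted *P* was 0.88. A different effect in formerly obese and lean mice was thus not established. The interaction of the brighter *Cish* probe set, -2.20, did not pass. From lean to lean-HFD livers 17521300 differed by 1.04 (exact permutation *P*=0.0541), with 5 of 6 lean-HFD livers above the lean average. From formerly obese to formerly obese-HFD livers it differed by -0.54 (exact permutation *P*=0.0238), with 5 of 6 formerly obese-HFD livers below the formerly obese average.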

How the results depend on the processing

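The 3 calls in formerly obese-HFD vs lean-HFD livers passed in every setting and omission of 1 liver that was run, except at an FDR of 10%, where 0 passed. The call of *Bcl6* in obese vs formerly obese-HFD livers likewise failed at an FDR of 10% alone, and the interaction of *Cish* 17521300 passed in all 29 settings (-1.84 to -1.39). In lean-HFD vs lean livers the count of 1 became 0 with array weights or an FDR of 10%, 2 with the other probe sets of *Socs2* and *Socs3*, and 0 to 2 without 1 liver. With all 30 livers in a single fit it stayed at 1, but *Igfals* was lost and *Cish* 17521300 passed. In formerly obese-HFD vs formerly obese livers the count of 1 became 0 with an intensity trend and robust prior, with the replicate block, at an FDR of 10% or with a gene's probe sets averaged, and 0 to 2 without 1 liver. With all 30 livers it again stayed at 1, with *Cish* 17521300 lost (-0.54) and *Stat5b* past the criteria. In obese vs lean-HFD livers the count of 0 became 1 with all 30 livers in a single fit, 2 with the replicate block, 1 with the other probe sets of *Socs2* and *Socs3*, and 0 to 2 without 1 liver. In obese vs formerly obese-HFD livers the count of 2 became 1 with all 30 livers in a single fit or with a gene's probe sets averaged, 0 at an FDR of 10%, and 1 to 2 without 1 liver. The interaction count of 1 became 2 with all 30 livers in a single fit or with median-centred arrays, and 1 to 2 without 1 liver. The causes were not tested. Of 36 correlations, 5 passed, against 1 without the formerly obese-HFD group, 2 without formerly obese-HFD replicate 6 and 12 with the other probe sets. The last 2 settings and the other probe sets of *Socs2* and *Socs3* were chosen after seeing the data.

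Livers with the same replicate number did not deviate together (*r* of -0.110 to 0.112 over 8 comparisons), so the numbers were not taken as pairs. Of 895 member values with all livers kept, 871 stayed on their side of the criteria, 14 fell below and 10 rose above, and of 1320 with 1 liver left out, 1280, 23 and 17 did so. No called value changed sign. Differences that passed in neither setting were compared by side of the threshold only, and 13 and 81 of them changed sign.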

Other observations

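Glucocorticoids and interleukin 6 act on several of the same liver genes as growth hormone, and their targets are given as values. All 10 glucocorticoid-induced genes were numerically higher in formerly obese-HFD vs lean-HFD livers (median log2 difference 0.37, against 0.0005 over all probe sets). Of these, 1 passed the criteria as higher (0.445% of all probe sets), *Tat*, a tyrosine-degrading enzyme (2194 against 1630). All 10 were also numerically higher in formerly obese vs lean livers (median 0.27, against -0.0080). There 1 passed as higher (0.554% of all probe sets), *Zbtb16*, a zinc finger transcription factor (63.2 against 37.5), and 2 were under 0.05 unadjusted (5.87% of all). In obese vs lean livers 6 of the 10 were numerically higher and 4 lower (median 0.36, against -0.0067). There 1 passed as higher (1.14% of all probe sets), and 5 were under 0.05 unadjusted (7.79% of all).

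Of 19 measured targets of interleukin 6 and STAT3, 13 were numerically higher in obese vs lean livers, and 6 passed the criteria as higher (1.14% of all probe sets) and none as lower. By smallest *P* these were *Lcn2*, which encodes a siderophore-binding protein (156 against 44.3), the acute phase gene *Orm2* (154 against 54.5), *Steap4* (373 against 303) and the acute phase gene *Saa2* (694 against 228). In formerly obese vs obese livers 12 of the 19 were numerically lower and 5 passed as lower (1.03% of all), and in formerly obese-HFD vs lean-HFD livers 0 passed. Of 14 clock genes, 3 passed as lower in obese vs lean livers (0.878% of all), *Dbp*, *Bhlhe41* and *Nr1d1*, and 1 as higher (1.14% of all), *Cry1*, and 0 passed in formerly obese-HFD vs lean-HFD livers.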
